A study of Homo sapiens with 8 samples.

Results

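The Iroquois genes IRX1 to IRX6 were examined in peak lists of the repressive histone mark H3K27me3, made from MOLM14 leukaemia cells given DMSO or the kinase inhibitor AC220. The 6 genes were taken by family name, and their starts are known here to the nearest kb on GRCh37. IRX4, IRX2 and IRX1 lie in that order on chromosome 5 (band 5p15.33), in an interval from 1800001 to 3700000. IRX3, IRX5 and IRX6 lie in that order on chromosome 16 (band 16q12.2), from 54200001 to 55450000. These intervals held 116 of 104913 peaks in DMSO 1, 132 of 104517 in AC220 1, 161 of 117350 in DMSO 2 and 216 of 139465 in AC220 2.

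The established human cell line MOLM14 comes from acute myeloid leukaemia and has an internal tandem duplication in the receptor tyrosine kinase gene FLT3 and a fusion of KMT2A to MLLT3. AC220 (quizartinib) is an FLT3 inhibitor, DMSO is its solvent, and all cells were treated for 24 h. The series holds 8 samples, of which the 2 immunoprecipitated libraries of each treatment have 1 deposited peak list each, while the 4 inputs were not analysed here. Drosophila S2 cells had been added to every sample before lysis, and a single cell line was used throughout. The blood identity given in the labels could not be checked against marker genes, because peak lists hold no expression values.

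Iroquois proteins are homeodomain transcription factors of the TALE class, whose homeodomain carries extra residues in a loop, and they pattern the neural tube, heart, limb and kidney. Their clusters arose by duplication, and IRX1 pairs with IRX3, IRX2 with IRX5, and IRX4 with IRX6. H3K27me3 is written by the Polycomb complex PRC2, typically over CpG-rich promoters of silent developmental genes, and Iroquois clusters are well-known Polycomb targets in many cell types. IRX3 has been reported as active in a share of acute leukaemias. The values below are covered shares, the percentage of the bases of a window that lay inside any deposited peak. They show where a peak was listed and not how much mark a cell carried, so a share of 0% means that no peak was listed.

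Set 1 stands for the pair of libraries with number 1 and set 2 for the pair with number 2, since the lists of set 2 covered 2.55 times (DMSO) and 2.59 times (AC220) the length of those of set 1. Covered length was 17.2% lower with AC220 than with DMSO in set 1 and 15.9% lower in set 2. This gap between sets is larger than that between treatments, so every value is given within its set. Separate cultures are not stated for the libraries of a treatment, so p-values speak for these libraries alone, and the scatter among them may be technical.

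RefSeq promoter sequences (GRCh38.p14) matched 3 of the 6 members, the chromosome 5 genes IRX4, IRX2 and IRX1. The 250 bases upstream of the outermost annotated start of each gene are shown, because their starts ranged from one amid peaks (IRX4) to one in a long peak-free stretch (IRX1). Capitals mark every CG dinucleotide, the CpG of CpG islands, and reading either strand gives the same count. The peak lists are on GRCh37, so these letters were not placed on peaks.

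IRX4, chr5:1887180-1887429, minus strand: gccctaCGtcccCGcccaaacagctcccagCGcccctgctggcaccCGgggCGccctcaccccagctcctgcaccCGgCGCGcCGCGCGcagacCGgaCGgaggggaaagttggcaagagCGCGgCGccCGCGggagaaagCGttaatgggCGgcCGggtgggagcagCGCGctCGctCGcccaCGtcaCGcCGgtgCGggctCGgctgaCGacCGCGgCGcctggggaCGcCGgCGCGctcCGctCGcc
IRX2, chr5:2751678-2751927, minus strand: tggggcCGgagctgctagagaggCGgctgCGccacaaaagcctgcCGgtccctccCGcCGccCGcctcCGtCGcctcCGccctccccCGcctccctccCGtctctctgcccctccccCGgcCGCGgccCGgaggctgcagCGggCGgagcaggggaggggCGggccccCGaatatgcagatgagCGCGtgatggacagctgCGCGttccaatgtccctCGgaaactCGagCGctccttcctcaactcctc
IRX1, chr5:3595582-3595831, plus strand: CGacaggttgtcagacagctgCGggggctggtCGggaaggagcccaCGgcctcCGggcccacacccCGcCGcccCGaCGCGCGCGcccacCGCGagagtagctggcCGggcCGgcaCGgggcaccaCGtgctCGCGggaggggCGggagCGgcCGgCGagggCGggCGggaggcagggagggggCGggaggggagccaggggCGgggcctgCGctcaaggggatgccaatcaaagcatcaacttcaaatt

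All 3 sequences were rich in CpG. IRX4 had 40 CpG in 250 bases, IRX1 had 29 and IRX2 had 27, against a median of 11 over 35116 promoter entries of the same length. At least as many CpG were found in 2.16% of those entries for IRX4, in 14.1% for IRX1 and in 17.7% for IRX2. The G and C share was 77.6%, 75.2% and 72.8% in the same order, against a median of 58%. IRX1 and IRX2 thus had CpG-dense promoters although no list held a peak within 5 kb of their starts. Of all 10 kb windows, 58.8% likewise had no peak in any library.

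On chromosome 5, H3K27me3 peaks lay mainly in the part of the interval that holds IRX4 and were nearly missing from the rest of the cluster. They were not centred on IRX4. The 500 kb before the interval had shares of 24.9% in DMSO 1, 24.9% in AC220 1, 41.7% in DMSO 2 and 43.6% in AC220 2. Of the 19 bins of 100 kb in the interval, 4 had a peak in all 4 libraries, and these were the first 4, from 1800001 to 2200000. Over the genome, 51.2% of 100 kb windows had no peak in AC220 1, the highest such share of the 4 libraries. The share in the third of them (2000001 to 2100000) was 40.1% in DMSO 1, 32.4% in AC220 1, 77.9% in DMSO 2 and 67.5% in AC220 2. From 2300001 onwards no 100 kb bin exceeded 7% in any library, and 13 of the 19 bins had no peak in either library of set 1. When each base was assigned to its nearest IRX start, the 519.5 kb nearest to IRX4 held all of the DMSO 1 coverage, 99.3% of AC220 1, 92.8% of DMSO 2 and 94.7% of AC220 2.

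**Figure D1:**
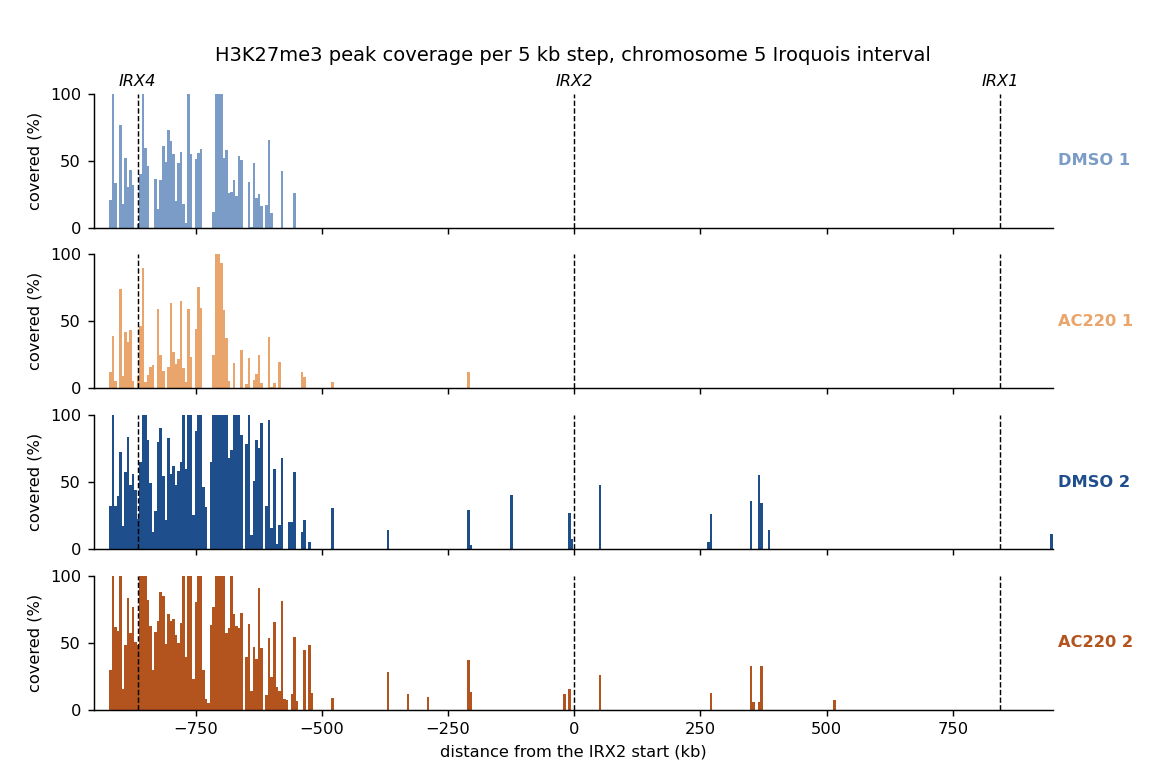
Covered share (%) of each 5 kb step in the chromosome 5 interval, 1 panel per library, against distance from the IRX2 start in kb, with dashed lines at the IRX4, IRX2 and IRX1 starts. In all 4 libraries most peaks lie in the part that holds IRX4, while the steps at IRX2 and IRX1 are empty or nearly so.

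IRX4, a gene of ventricular heart muscle identity, had peaks on either side of its start but none over it. Within 50 kb of the start the share was 35.6% in DMSO 1, 25.2% in AC220 1, 59.0% in DMSO 2 and 69.5% in AC220 2. AC220 was lower in set 1 and higher in set 2, so the treatments overlapped. These windows were covered more than 93.8%, 91.5%, 88.2% and 94.9% of all 100 kb windows of the same libraries, in the same order. Within 5 kb the share was 7.90% in DMSO 1, 13.1% in AC220 1, 26.98% in DMSO 2 and 60.9% in AC220 2. The stretch from 1886405 to 1888985, which includes the start, was free of peaks in all 4 libraries. The nearest peak lay 2.86 kb away in DMSO 1, 2.56 kb in AC220 1, 0.878 kb in DMSO 2 and 0.596 kb in AC220 2.

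The densest part of this covered ground lay away from the gene. The longest stretch of 5 kb steps covered at least 50% in all 4 libraries ran from 2040001 to 2060000, and its centre was 163 kb from the IRX4 start, on the side of IRX2. It was covered over 88.1% in both libraries of set 1 and over 100% in both of set 2. The widest peak of every list in the interval lay here. It measured 17.8 kb in DMSO 1, 15.1 kb in AC220 1, 36.0 kb in DMSO 2 and 23.5 kb in AC220 2. The other stretches covered likewise in all 4 libraries and among the 3 longest were 2005001 to 2015000 and 1850001 to 1855000. In the gene table, IRX4 and IRX2 have 9 genes between them, of which 7 are long noncoding RNAs, 1 is an uncharacterised protein-coding model and 1 a pseudogene.

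IRX2, which acts in hindbrain and cerebellar patterning, had no peak within 5 kb in any library. Within 50 kb the share was 0% in DMSO 1, 0% in AC220 1, 2.75% in DMSO 2 and 2.41% in AC220 2. The nearest peak lay 554 kb away in DMSO 1 and 207 kb in AC220 1, but 6.62 kb in DMSO 2 and 8.22 kb in AC220 2. The set 2 peaks were 1.73 kb and 0.758 kb wide and ranked above 53.7% and 39.6% of their lists by deposited q. They were therefore ordinary members of those lists, and the start lay in a gap of 55.5 kb that no list interrupted.

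IRX1, a gene of lung, limb and foregut patterning, lay, of all members, in the longest stretch without a peak once the 4 lists were combined. No library had a peak within 50 kb of its start, and the nearest lay 183 kb away in DMSO 1, 1051 kb in AC220 1, 100.3 kb in DMSO 2 and 183 kb in AC220 2. The start lay in a stretch of 430 kb, from 3265863 to 3696267, that was free of peaks in all lists. Of 140848 such gaps between the combined peaks on 23 chromosomes, 0.466% were at least as long. Being long, these few gaps together held 577 Mb of the genome, so a start inside one is not rare by length. Windows of 100 kb without a peak in any library were common, at 31.8% of 30353, so an empty IRX1 window did not stand apart. The next longest of the 20 peak-free runs of steps in the interval, 2805001 to 3015000 and 3140001 to 3265000, also lay between IRX2 and IRX1.

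The chromosome 16 cluster was covered over a larger share of its length than that of chromosome 5 in every library, by peaks that ranked lower in their lists, and differently at each of its 3 genes. Over the interval the share was 9.99% in DMSO 1, 9.32% in AC220 1, 38.2% in DMSO 2 and 33.7% in AC220 2. It was 3.82 times (DMSO) and 3.62 times (AC220) as high in set 2 as in set 1, against 2.003 and 2.79 times for chromosome 5. All 13 bins (the last one of 50 kb) had a peak in some library, and 9 had one in all 4. Over the genome, 31.8% of 100 kb windows had no peak in any library and 51.2% had none in AC220 1. The peaks ranked in the middle of their lists by q. The median peak exceeded 42.1% of the DMSO 1 list, 36.7% of AC220 1, 44.3% of DMSO 2 and 37.5% of AC220 2. On chromosome 5 the same medians were 70.8%, 72.7%, 68.0% and 65.1%.

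**Figure D2:**
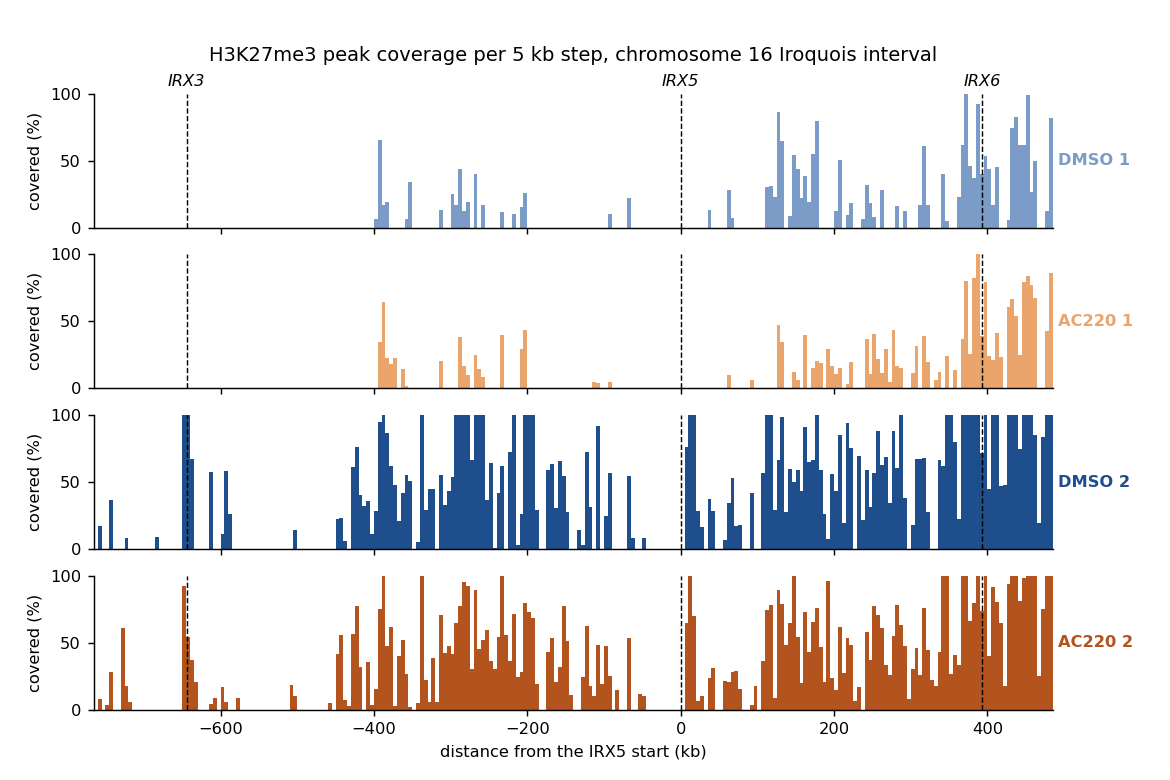
Covered share (%) of each 5 kb step in the chromosome 16 interval, 1 panel per library, against distance from the IRX5 start in kb, with dashed lines at the IRX3, IRX5 and IRX6 starts. Coverage at IRX3 appears in set 2 alone, the IRX5 start sits in a gap in every panel, and IRX6 is covered in all 4 libraries.

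IRX3, a neural and kidney patterning gene that is also the distant target of enhancers inside FTO, was covered in set 2 and not in set 1. Within 5 kb the share was 0% in DMSO 1, 0% in AC220 1, 100% in DMSO 2 and 75.4% in AC220 2. In DMSO 2 this was a single peak of 12.2 kb (54315007 to 54327206) with a fold enrichment of 2.65, as deposited by the authors, and it ranked above 92.2% of its list by q. Taking starts at their rounded kb, it was the only peak over a start among the 24 pairs of start and library, but a peak of AC220 2 came within 0.088 kb of the same start, closer than the rounding can resolve. In AC220 2 the same place held 4 separate peaks between 54315330 and 54327823, of which the widest was 4606 bp. In set 1 the nearest peaks lay 249 kb and 252 kb from the start. Peaks took up 17.2% of the window within 50 kb in DMSO 2 and 12.04% of it in AC220 2, and most of the covered bases lay within 10 kb of the start.

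IRX5, a gene of cardiac repolarisation and craniofacial development, had no peak within 5 kb in any library. Its start lay in a peak-free stretch of 52.8 kb, from 54918357 to 54971176, most of it on the IRX3 side, where the gene table places the long noncoding RNA gene CRNDE. On the other side a peak began 6.18 kb from the start in DMSO 2 (15.2 kb wide) and 6.77 kb from it in AC220 2 (11.7 kb wide). Both ranked high, above 89.9% and 86.1% of their lists. In set 1 the nearest peak lay 38.8 kb away with DMSO and 64.4 kb with AC220. Within 50 kb the share was 0.673% in DMSO 1, 0% in AC220 1, 19.8% in DMSO 2 and 15.8% in AC220 2.

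The ground between the starts carried much of the chromosome 16 coverage. Between IRX3 and IRX5 (644 kb) the share was 3.34% in DMSO 1, 3.40% in AC220 1, 29.4% in DMSO 2 and 25.1% in AC220 2. The gene table lists 8 genes there, all long noncoding RNAs. Set 2 exceeded set 1 here 8.81 times with DMSO and 7.38 times with AC220. Between IRX5 and IRX6 (393 kb) the share was 17.2%, 13.5%, 51.5% and 44.4% in the same library order. It was lower with AC220 by 21.8% in set 1 and by 13.8% in set 2. By contrast, between IRX2 and IRX1 (844 kb) it was 0% in both libraries of set 1, 1.30% in DMSO 2 and 0.726% in AC220 2.

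IRX6, a gene of retinal bipolar cells, was the most covered member within 50 kb in every library. Within 50 kb the share was 40.0% in DMSO 1, 39.9% in AC220 1, 83.8% in DMSO 2 and 75.5% in AC220 2, above 95.1%, 96.6%, 97.1% and 96.6% of all 100 kb windows. Within 5 kb it was 43.0%, 59.0%, 85.8% and 86.8% in the same order. Peaks came within 0.402 kb of the start in DMSO 1, 1.05 kb in AC220 1, 0.380 kb in DMSO 2 and 0.648 kb in AC220 2. As at IRX4, none spanned it. The shared gap was 1.05 kb long, which is close to the 1 kb to which starts are known here. The widest peak of the interval lay on the IRX5 side of this start in DMSO 1 (8.22 kb), AC220 1 (11.1 kb) and DMSO 2 (28.7 kb). In AC220 2 it lay beyond the gene, from 55436229 to 55457289 (21.1 kb).

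The longest stretches covered at least 50% in all 4 libraries on chromosome 16 all lay near IRX6. They ran from 55395001 to 55405000, from 55410001 to 55420000 and from 55335001 to 55340000. Their shares ranged from 60.5% in AC220 1 over the first to 100%. The longest peak-free runs of steps were 54390001 to 54455000, 54920001 to 54970000 and 54465001 to 54505000, of which the second included the IRX5 start. The longest of these was 65 kb, against 425 kb for the longest on chromosome 5.

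Set side by side, the paralogues IRX4 and IRX6 were the 2 members covered in all 4 libraries within 5 kb and within 50 kb. The share of all windows with a peak in all 4 libraries was not computed, so this count has no exact background. In AC220 1 alone, 77.4% of 10 kb windows and 51.2% of 100 kb windows over the genome had no peak. Each stands at 1 end of its cluster by order on the chromosome. The genes at the other ends, IRX1 and IRX3, were at 0% in both libraries of set 1. IRX3 was covered within 5 kb in set 2 alone, and IRX1, IRX2 and IRX5 in no library. These 3 of 6 are near the share over the genome, where 58.8% of 303618 windows of 10 kb had no peak in any library. Within 50 kb the order was IRX6, IRX4, IRX5, IRX3, IRX2 and IRX1 in both libraries of set 2. In set 2 the gap of IRX4 to IRX5 (59.0% against 19.8% with DMSO, 69.5% against 15.8% with AC220) was wider than the differences between treatments at either gene. IRX5 and IRX3 differed by under 4 percentage points, which is less than the difference between treatments at IRX3 in set 2 (-5.20 points). This order describes these lists. It was not tested.

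**Figure D3:**
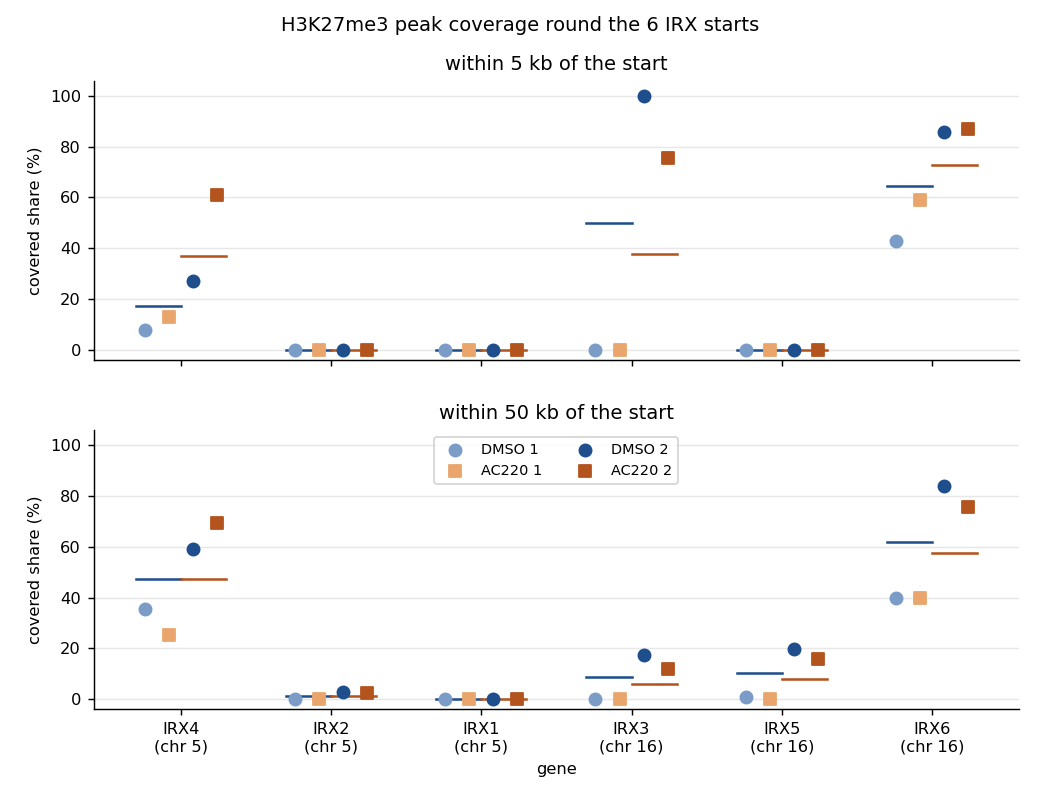
Covered share (%) within 5 kb (top) and 50 kb (bottom) of each IRX start, 1 point per library, with short lines at the mean of the 2 libraries of each treatment. IRX4 and IRX6 lie above 0 in every library, IRX3 within 5 kb in set 2 alone, and IRX1 at 0 throughout.

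The reach of coverage from the start also differed among members. In set 2, IRX3 went from 100% (DMSO 2) and 75.4% (AC220 2) at 0 to 5 kb to 33.5% and 22.9% at 5 to 10 kb, and to 0% in DMSO 2 at 10 to 25 kb. IRX5 went the opposite way, from 0% in both at 0 to 5 kb to 38.2% and 32.3% at 5 to 10 kb. IRX6 stayed at or above 61.9% in set 2 out to 100 kb, and reached 82.85% (DMSO 1) and 79.1% (AC220 1) in set 1 at 5 to 10 kb. IRX4 was less covered at 0 to 5 kb than at 5 to 10 kb in every library, and at 10 to 25 kb was covered over 52.6%, 31.7%, 78.4% and 79.0% in the usual library order. At 100 to 200 kb, partly outside the interval, its shares were 38.7%, 32.2%, 74.0% and 73.5%. IRX2 reached 17.3% (DMSO 2) and 7.58% (AC220 2) at 5 to 10 kb and no more than 2.13% in any ring beyond it.

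**Figure D4:**
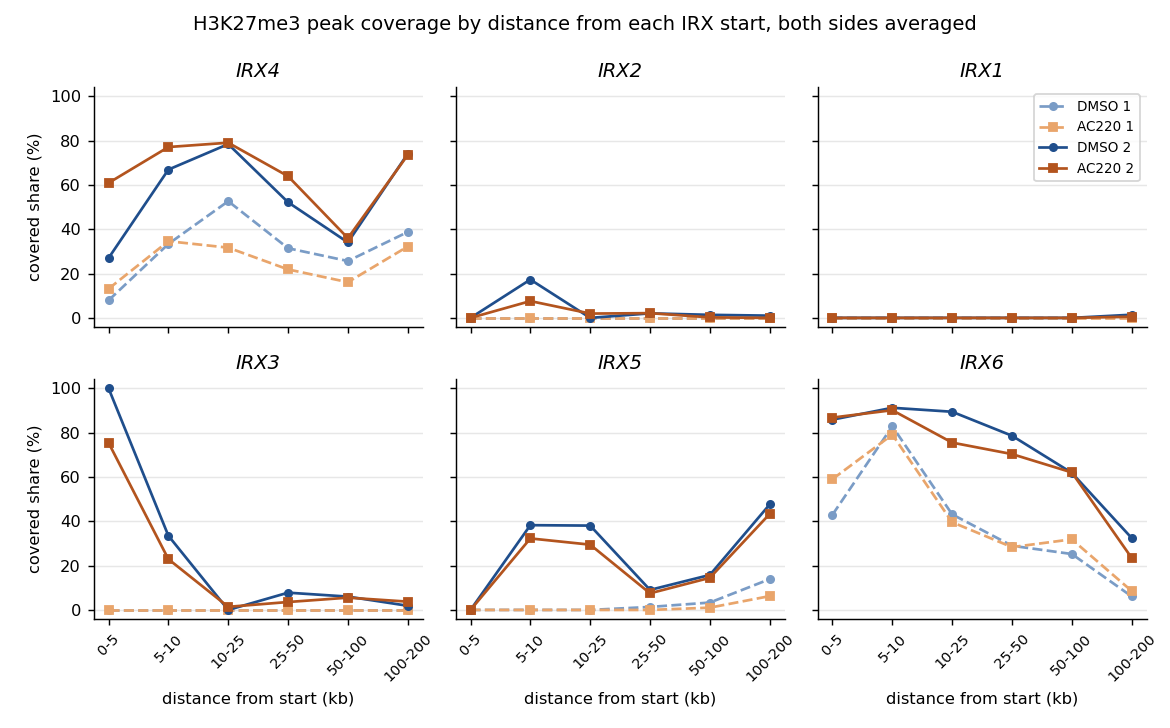
Covered share (%) by distance from each IRX start in kb, both sides averaged, 1 line per library (dashed for set 1, solid for set 2). IRX4 and IRX6 carry coverage at every distance, IRX3 in set 2 mainly within 10 kb, and IRX1 almost none.

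Whether FLT3 inhibition altered the mark at these genes was then examined. Over the whole chromosome 5 interval set 1 had a share of 6.45% with DMSO and 4.44% with AC220, a drop of 31.1%. Set 2 had 12.9% with DMSO and 12.4% with AC220, a drop of 4.21%. On chromosome 16 it was 6.76% lower with AC220 in set 1 and 11.7% lower in set 2. Thus AC220 was lower in both sets in both intervals. Relative to the whole lists (17.2% and 15.9% lower), the loss was larger on chromosome 5 in set 1 and smaller in the other 3 cases. Pooled, chromosome 5 was at 9.68% ± 4.57 (DMSO) against 8.41% ± 5.61 (AC220; SD, n = 2; difference -1.28 points, exact permutation test, two-sided, p = 0.667). Chromosome 16 was at 24.1% ± 19.9 and 21.5% ± 17.3 (SD, n = 2; difference -2.57 points, exact permutation test, two-sided, p = 0.667). The SD of each treatment exceeded both differences, and 2 libraries against 2 cannot give a two-sided p below 0.333.

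Both pooled directions turned without DMSO 2 (1.96 points on chromosome 5 and 11.5 on chromosome 16) or without AC220 1 (2.69 and 9.64). They stayed negative without DMSO 1 (-4.51 and -16.7) or without AC220 2 (-5.24 and -14.8). Each of these removals leaves the sets unbalanced. With all 4 lists trimmed to equal length, AC220 was higher by 0.634 points on chromosome 5 and 1.76 on chromosome 16. Equal length was that of AC220 1, the shortest list, which was therefore left whole. With only the DMSO lists trimmed to their AC220 length, chromosome 16 was higher by 2.49 points, but trimming DMSO alone can only raise this difference.

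At the starts themselves the differences between treatments did not share 1 direction. Within 5 kb, IRX4 was 5.22 points higher with AC220 in set 1 and 33.9 in set 2, and IRX6 was 16.1 and 0.930 points higher. Thus 2 of 6 members were higher in both sets and 0 of 6 lower, where 3.45% of all 10 kb windows were higher in both sets and 10.9% lower. No peak in any library, and so no difference, was found at 3 of 6 members and in 58.8% of those windows. In the lists as deposited the treatments overlapped at both genes: at IRX4, AC220 1 (13.1%) lay below DMSO 2 (26.98%), and at IRX6, AC220 1 (59.0%) lay below DMSO 2 (85.8%). Pooled, IRX4 was at 17.4% ± 13.5 (DMSO) against 37.0% ± 33.8 (AC220; SD, n = 2; two-sided exact permutation test, p = 0.667). IRX6 was at 64.4% ± 30.3 and 72.9% ± 19.6 (SD, n = 2; two-sided exact permutation test, p = 0.667). With all lists trimmed to equal length both AC220 libraries lay above both DMSO libraries at IRX4, by 21.6 points on average (two-sided exact permutation test, p = 0.333, the smallest possible). That length is the length of AC220 1, so in set 1 this cut DMSO alone and could only raise the difference. With -log10 q of at least 2 the IRX4 difference was 16.95 points, and the treatments overlapped. With -log10 q of at least 3 no peak was left within 5 kb of IRX4 in any library, so the difference of 0 says nothing on the treatments. The IRX6 difference of 8.50 points turned to -2.90 with peaks of -log10 q of at least 2, and to -6.98 within 2 kb. IRX3 differed by -24.6 points (AC220 minus DMSO) in set 2 and was at 0% in set 1 under both treatments (exact permutation test, two-sided, p = 1). Its pooled difference went from -12.3 to -50.0 points both at equal list length and for peaks of -log10 q of at least 3. In both settings no AC220 2 peak was left there, while the single DMSO 2 peak still covered 100%. The change thus reflects which peaks passed the cut, and says nothing more on the treatments. After Benjamini-Hochberg adjustment over the 6 genes, every exact p within 5 kb and within 50 kb was 1.

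Within 50 kb, IRX5 was lower with AC220 in both sets (-0.673 points in set 1 and -3.945 in set 2), as was IRX6 (-0.144 and -8.33 points). IRX4 went in opposite directions, by -10.4 points in set 1 and 10.5 in set 2, and its pooled difference of 0.022 points became 17.9 with all lists trimmed to equal length. IRX2 and IRX3 differed in set 2 alone, by -0.342 and -5.20 points, and IRX1 was at 0% throughout. Hence 2 of 6 members were lower in both sets and 0 of 6 higher, where 30.0% of all 100 kb windows were lower in both sets and 6.9% higher. The count of lower members was near this background.

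Steps of 5 kb gave the same picture. For a step to be called lower, both DMSO libraries had to lie above both AC220 libraries by 25 points or more, and for higher the other way round. Of 630 steps 1 was called lower (0.159%) and 0 higher, against 0.0883% and 0.0171% of all 607248 steps. The called step lay between IRX3 and IRX5 (54610001 to 54615000), 291.5 kb from the IRX3 start. It was covered over 33.7% in DMSO 1 and 50.9% in DMSO 2, and over 0% in AC220 1 and 2.40% in AC220 2, and it was no longer called with peaks of -log10 q of at least 2. Of 280 steps with a peak in any library, AC220 was lower in both sets in 54 (19.3%) and higher in both in 22 (7.86%), against 19.5% and 6.99% of such steps over the genome.

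The peaks of the clusters were more numerous with AC220 and mostly narrower. Their number on chromosome 5 was 42 in DMSO 1, 48 in AC220 1, 51 in DMSO 2 and 63 in AC220 2, and on chromosome 16 it was 74, 84, 110 and 153. AC220 had more peaks than DMSO in both sets in both intervals, while covering less. The whole lists held 104913 peaks with DMSO and 104517 with AC220 in set 1, and 117350 and 139465 in set 2. Pooled, the numbers were 46.5 ± 6.36 and 55.5 ± 10.6 on chromosome 5 and 92 ± 25.5 and 118.5 ± 48.8 on chromosome 16 (SD, n = 2; two-sided exact permutation test, p = 0.667 for each). Median width on chromosome 5 was 2180 bp in DMSO 1 and 1008 bp in AC220 1, and 2394 bp in DMSO 2 and 2228 bp in AC220 2. On chromosome 16 it was 978.5 bp and 906.5 bp, and 2201 bp and 1513 bp. The whole lists had medians of 1211 bp, 996 bp, 2323 bp and 1614 bp in the usual order. With DMSO lists trimmed to their AC220 length the differences in number went from 9 to 23.5 on chromosome 5 and from 26.5 to 71.5 on chromosome 16. Treatments then did not overlap (two-sided exact permutation test, p = 0.333 for each). Trimming DMSO alone takes peaks from DMSO only, so it can only raise these differences. With all lists trimmed to equal length they were 11 and 22.5 (two-sided exact permutation test, p = 0.667 for each). With peaks of -log10 q of at least 2 the difference in number on chromosome 5 turned to -0.500, and with at least 3 that on chromosome 16 to -1.50.

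The overlap of treatments within a set was, by length, below that of the whole lists in all 4 cases on chromosome 16, and in 2 of 4 on chromosome 5. Of the DMSO peak length on chromosome 5, 54.3% lay inside AC220 peaks in set 1 and 80.7% in set 2, and of the AC220 length 78.8% and 84.2% lay inside DMSO peaks. On chromosome 16 these shares were 48.3% and 70.8%, and 51.8% and 80.1%. Over the whole lists they were 56.2% and 72.6%, and 67.8% and 86.4%. Counted by peaks sharing any base, DMSO 2 on chromosome 16 lay above its whole list instead (80.9% of peaks against 72.8%), as it did by peaks shared over 50% of their length (63.6% against 52.8%). These differences from the whole lists were not tested.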

How the data were processed

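H3K27me3 immunoprecipitation and sequencing gave 4 libraries in 2 treatments, grouped by sample title, with 4 inputs not analysed here. The submitters' processing notes list BWA 0.7.10-r789 and MACS2 2.1 and give no roles. The authors deposited 1 broad peak list per library, so peaks were called per library. The deposited fold enrichment is a ratio over each library's own background, and the deposited -log10 p and -log10 q are values of a peak within its list. The deposited score equals 10 times the -log10 q, rounded down, for nearly all peaks. No deposited file holds read counts, so depth is unknown and no interval or floor is given. No peak had a -log10 q below 1. Whether the inputs or Drosophila reads entered the calls, and the build, are not given in the sources used here. No peak on 23 chromosomes (1 to 22 and X) passed the GRCh37 lengths shipped with circlize 0.4.16 (R 4.3.3).

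Covered shares were computed in numpy 2.4.6 and pandas 2.3.3 under Python 3.11.15, and checked on simulated data. Windows tile those lengths, assembly gaps included. Starts were given in kb on GRCh37, and the spacing of neighbours differed from the GRCh38.p14 gene table by at most 0.502 kb. That table was used for gene order alone. Treatments were compared by an exact permutation test over 6 assignments of the 4 libraries. All 6 members are named, with the 3 longest covered and peak-free stretches, every called step and the widest peaks. Other stretches, the 100 kb bins, the rings and the nearest-start split were chosen after the data had been seen. Members, intervals and lists were chosen with earlier results of these data known. Alternatives were stricter q, trimmed lists, joined peaks, other window, step and separation sizes, other overlap rules, a block by number and leaving out each library. Figures used matplotlib 3.10.9.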

Additional observations from a re-analysis of the deposited data

How the results depend on the processing

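Values are AC220 minus DMSO unless said otherwise. The labels do not say that numbers pair libraries. Deviations of same-numbered libraries from the treatment means were correlated at 0.71 over Iroquois steps and 0.70 over all steps. The lists of set 2 are longer under both treatments, which can by itself give such a correlation, so it cannot show pairing. A replicate block cannot change a difference of means in this balanced design (-1.28 points on chromosome 5 and -2.57 on chromosome 16 with it), and no exact p below 0.5 is possible under it. The exact tests, with a smallest p of 0.333, say nothing on stability. Depth is unknown, and the longer lists of set 2 set most values.

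Trimming all lists to equal length gave 0.634 and 1.76 points for the chromosome 5 and 16 intervals, 0 points within 50 kb of IRX2 and of IRX5, and 1 step called higher on chromosome 5 and 4 on chromosome 16, with 0 lower on chromosome 16. Trimming only DMSO lists can only raise these differences. It gave 2.49 points on chromosome 16, 0.340 within 50 kb of IRX2 and 0.287 within 50 kb of IRX5. It also gave 3 steps higher and 0 lower on chromosome 16. With -log10 q of at least 2, peak number on chromosome 5 differed by -0.500 and IRX6 within 5 kb by -2.90 points. IRX2 within 50 kb differed by 0, as no peak was left there, and 0 steps were lower on chromosome 16. With at least 3, peak number on chromosome 16 differed by -1.50, and 0 steps were lower on chromosome 16. IRX4 within 5 kb and IRX2 within 50 kb differed by 0, as no peak was left in these windows. Joining peaks turned the widest peak on chromosome 16 to 6.72 kb. IRX4 (0.022 points within 50 kb) went to -1.05 within 25 kb and -1.89 within 100 kb, but to 5.50 with -log10 q of at least 3 and 17.9 at equal length, and IRX6 to -6.98 within 2 kb. Within 10 kb IRX2 was at -2.43 and IRX5 at -1.50 points.

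Steps of 2 kb gave 3 lower and 1 higher on chromosome 5 and 2 lower and 1 higher on chromosome 16, steps of 10 kb 0 lower on chromosome 16. A separation of 10 points gave 1 lower on chromosome 5 and 2 lower and 1 higher on chromosome 16, and one of 50 points 0 lower there. Counted by peaks shared over 80% of their length, the mean overlap was 22.9% (DMSO) and 37.6% (AC220) on chromosome 16 and 33.8% and 49.9% on chromosome 5, and that of AC220 on chromosome 5 was 70.9% at 50% of length and 76.9% at any base, against 81.5% by length.

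Leaving out 1 library at a time gave -5.24 to 2.69 points for the chromosome 5 interval and -16.7 to 11.5 for chromosome 16. Peak number ranged over 1.5 to 16.5 and -8 to 61, and the widest peak over -16.7 to 1.51 kb and -12.7 to 7.85 kb. Steps called lower numbered 0 to 18 and 1 to 38, and higher 0 to 5 and 0 to 12. Within 5 kb the ranges were -4.32 to 43.4 (IRX4), -62.3 to 37.7 (IRX3) and -12.9 to 29.9 (IRX6), and within 50 kb -22.1 to 22.1 (IRX4), -1.55 to 1.2 (IRX2), -11.2 to 6.02 (IRX3), -11.9 to 7.23 (IRX5) and -26.2 to 17.7 (IRX6). IRX1 stayed at 0 in both windows, and IRX2 and IRX5 within 5 kb.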

Other observations

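The ground outside the intervals differed between the 2 ends of each interval. The 500 kb before the chromosome 5 interval, next to the IRX4 side, was covered over 24.9% in DMSO 1, 24.9% in AC220 1, 41.7% in DMSO 2 and 43.6% in AC220 2. The 500 kb after it, beyond IRX1, had shares of 0.081%, 0%, 0.575% and 0.220% in that order. On chromosome 16 the 500 kb before the interval, on the IRX3 side, where the gene table places FTO, was at 0% in both DMSO libraries and in AC220 1 and at 0.522% in AC220 2. The 500 kb after it, beyond IRX6, where MMP2 and LPCAT2 follow in the gene table, was covered over 14.0%, 12.9%, 34.8% and 30.9%. The members with the highest shares within 50 kb, IRX4 and IRX6, thus adjoined covered ground outside the interval, and IRX1 and IRX3 adjoined ground that was nearly free of peaks.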
